A study of Mus musculus with 8 samples.

Results

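This account covers 37 genes of fatty acid oxidation and ketone synthesis in mouse liver: the carnitine shuttle, the mitochondrial and peroxisomal enzymes of beta-oxidation, the last step of ketone synthesis and genes of the fasting response. They were listed by name, matched to the 45706 gene rows of a count table through their identifiers, and all 37 were found and all passed the low-count filter that left 14645 genes to test. Liver RNA came from C57BL/6 mice, 4 with the genotype label HuR WT and 4 with the label HuR KO, with 1 library per animal. Elavl1 encodes HuR, which binds RNA. Not given in the sources used here are the animals' age, feeding state and hour of collection, the deleted exons, and the cells that carry the deletion. The titles carry animal numbers from 98 to 100 (WT replicate 3, KO replicates 3 and 4) or of 4 digits (the other 5 libraries), and what separates these number series is not stated.

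Beta-oxidation shortens fatty acids by stepwise removal of acetyl-CoA. Long-chain acyl groups enter the mitochondrion as carnitine esters, and each round then takes an acyl-CoA dehydrogenase, a hydratase, a hydroxyacyl-CoA dehydrogenase and a thiolase, while peroxisomes start on very long and branched chains. In fasting, the liver turns much of the acetyl-CoA into ketone bodies for other organs, and many of these genes are induced by the nuclear receptor PPAR-alpha.

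Total gene counts per library ran from 18649618 to 31249286. All 12 hepatocyte markers were measured; edgeR called none, 2 had an unadjusted p under 0.05, and 1 was lower by DESeq2, with no low-count filter or with the number series as a covariate. Elavl1 itself was no lower in KO than in WT libraries (42.0 ± 6.41 CPM in WT and 50.02 ± 4.33 CPM in KO, SD, n = 4 each, edgeR adjusted p = 0.258; CPM is counts per 1000000 reads, scaled by TMM). A count summed over the gene cannot check the labels where the deleted part is unknown, so groups are named here as labelled. Of 13 tested markers of bile duct cells 10 were higher in KO, the 14 listed markers summing to 70.2 to 93.2 CPM in WT and to 199 to 314 CPM in KO. Of 12 stellate cell and fibroblast markers 3 were higher (5 by DESeq2, 1 in the 4-digit series), with sums of 616 to 687 CPM in WT and 760 to 852 CPM in KO. By edgeR no macrophage, endothelial or lymphocyte marker was called, with 2, 4 and 1 at an unadjusted p under 0.05. DESeq2 called 1 lymphocyte marker lower and none of the other 2 lists, and edgeR called 1 lymphocyte marker lower with no low-count filter or without WT replicate 3. On all 8 libraries edgeR called none of 12 periportal and none of 12 pericentral hepatocyte markers. At an unadjusted p under 0.05 there were 2 and 6, against 18.0% of all genes. DESeq2 called 1 periportal and 3 pericentral markers higher. With the number series as a covariate edgeR called 1 and 2 higher. Without WT replicate 3 it called 2 periportal markers and 1 pericentral marker lower, and 1 pericentral marker higher. The part of these cells in the results below was not tested. In such bulk RNA, fewer cells of a type and less RNA per cell cannot be told apart.

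The 37 genes showed little difference between the genotypes, and 1 of them changed. Slc25a20, the carrier that exchanges acylcarnitine for carnitine across the inner mitochondrial membrane, was lower in KO, and the other 36 were not called in either direction. Over all genes tested, 1.37% were called lower and 2.32% higher (edgeR quasi-likelihood test, Benjamini-Hochberg adjusted p under 0.05). At an unadjusted p under 0.05 the count was again 1 of 37, against 18.0% of all genes. Log2 fold changes of KO against WT were above 0 in 19 genes and below 0 in 18, with a median of 0.01, against −0.00455 over all genes tested. The median size of the log2 fold change, regardless of sign, was 0.11 in the 37 genes and 0.17 over all genes. For 26 of the 37 the whole unadjusted 95% interval lay within 1.5-fold in either direction, and for 32 within 2-fold, which held for 53.8% and 76.4% of all genes. The 5 genes whose interval reached past 2-fold were Cpt1b, Fgf21, Bdh1, Acot1 and Vnn1.

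**Figure D1:**
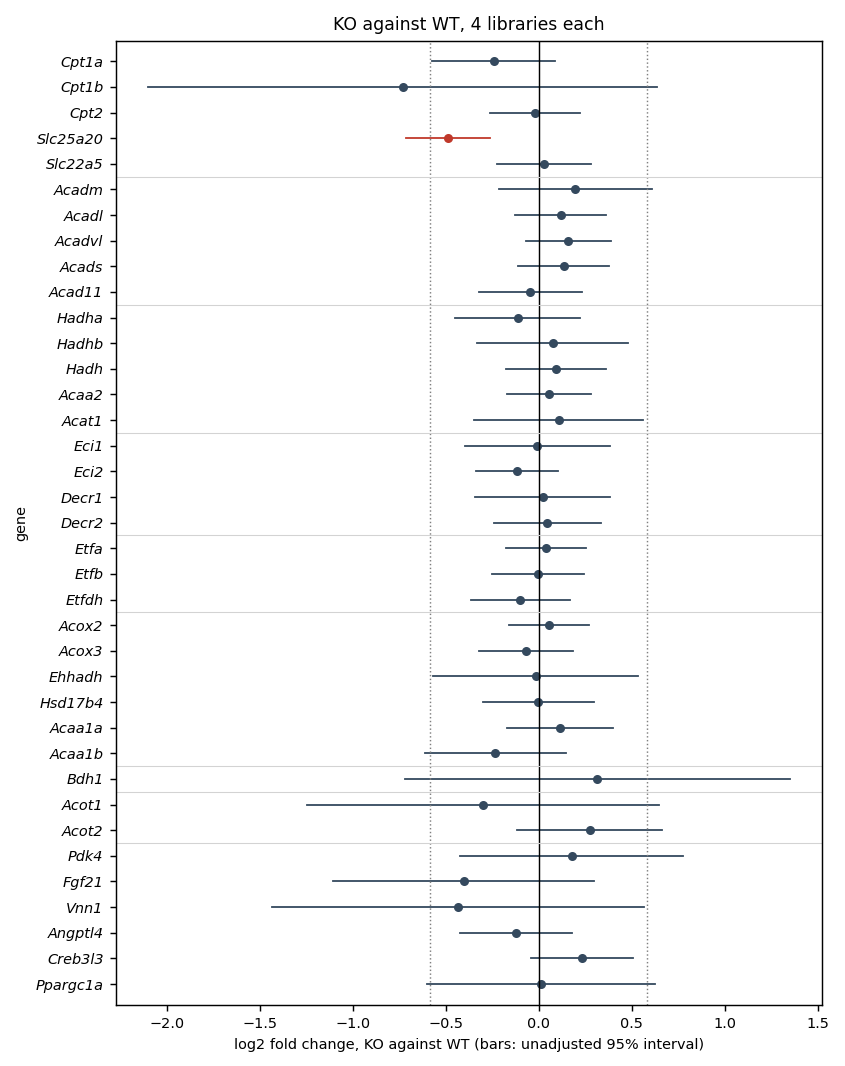
Log2 fold change of KO against WT for each of the 37 genes, in the order of their roles, with unadjusted 95% intervals; dotted lines mark 1.5-fold, and the gene past the adjusted threshold is red. Slc25a20 is the 1 red gene, and the longest bars belong to Cpt1b, Bdh1, Vnn1, Acot1 and Fgf21.

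Slc25a20 (ENSMUSG00000032602, mm10 chromosome 9, 108662088 to 108684641, plus strand) was measured at 156, 211, 199.8 and 176 CPM in WT replicates 1 to 4 and at 133, 125, 129 and 142 CPM in KO replicates 1 to 4. The highest KO library lay below the lowest WT library, a separation that 11.2% of all genes showed in one direction or the other. Among the 37 it was the only gene whose groups did not overlap. The level fell from 186 ± 24.8 to 132 ± 7.09 CPM (SD, n = 4 each), which is 1.40-fold lower with a 95% interval from 1.20-fold to 1.64-fold (log2 fold change −0.49, SE 0.11, edgeR adjusted p = 0.0206). In the 4-digit series of animals the log2 fold change was −0.48 (edgeR adjusted p = 0.0815). In the series from 98 to 100, where WT is a single library, it was −0.56. The edgeR adjusted p was 0.0809 without WT replicate 2, 0.0576 without KO replicate 1, 0.052 without KO replicate 2 and 0.0739 without KO replicate 3. It was 0.0188 without WT replicate 3. No run of 50 bases in its annotated coding transcripts occurs in a transcript of another locus, and no other gene overlaps its exons on the same strand.

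The promoter of Slc25a20, the gene that changed, is shown here as the 300 bases from 250 before to 50 after the start site in RefSeq (GRCm38.p6, chr9:108661886-108662185, plus strand). It holds 13 CpG dinucleotides and is 58.0% G and C. The median over all 32851 promoters in the table was 7 CpG and 52.7% G and C, and over the 33 promoters of the 30 matched genes it was 14 CpG and 58.0%. The window contains none of the 3 motifs searched on both strands, which were DR1 (AGGTCA repeated on the same strand with 1 base of any kind between the copies, the arrangement to which PPAR-alpha binds), CCAAT and TATAAA.
Slc25a20: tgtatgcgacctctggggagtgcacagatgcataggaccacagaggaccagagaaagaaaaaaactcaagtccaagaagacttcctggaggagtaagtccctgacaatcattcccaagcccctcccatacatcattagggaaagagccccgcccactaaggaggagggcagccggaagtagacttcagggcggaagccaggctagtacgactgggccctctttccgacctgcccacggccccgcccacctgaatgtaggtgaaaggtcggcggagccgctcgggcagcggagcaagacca

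The exact DR1 was found in none of the 30 matched genes and in 0.0396% of all promoters. CCAAT was found in 15 of the 30 genes and in 37.4% of all promoters. A gene counted where any of its promoters held the motif, while the percentages count each promoter. The 30 genes have 33 promoters. TATAAA was found in Fgf21 alone, against 13.6% of all promoters. Cpt1b, Acaa2, Acat1, Hsd17b4, Decr1, Vnn1 and Angptl4 had no entry.

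Of the other carnitine genes, Cpt1a encodes the liver form of the outer-membrane carnitine palmitoyltransferase, whose inhibition by malonyl-CoA sets the rate of entry. It was measured at 568, 723, 942 and 624 CPM in WT and at 641, 485, 619 and 669 CPM in KO, in replicate order. The groups overlapped, WT replicate 3 lay highest and KO replicate 2 lowest (log2 fold change −0.24, SE 0.15, edgeR adjusted p = 0.447). Cpt1b, the muscle and brown fat form, was counted 3 to 42 times per library, at 0.437, 1.73, 0.397 and 0.166 CPM in WT and 0.697, 0.416, 0.311 and 0.226 CPM in KO, with WT replicate 2 highest. In the deposited annotation 81.4% of the Cpt1b exon length is overlapped by exons assigned to Chkb on the same strand, and reads falling on both genes were not counted, so its level is uncertain. Muscle and adipose markers were nearly absent, with 1 to 16 counts per library summed over 14 genes, of which 6 were at 0 in all libraries, and with 2 counts in WT replicate 2. Cpt2, the inner-membrane transferase, was at 213 ± 31.9 CPM in WT and 210 ± 13.8 CPM in KO. Slc22a5, the plasma membrane carnitine transporter OCTN2, was at 54.8 ± 7.84 and 55.9 ± 7.2 CPM. Its 95% interval, from 0.856-fold to 1.21-fold, excludes a change of the size seen for Slc25a20, although 27.1% of its 50-base runs also occur at other loci, nearly all in Slc22a21. The interval of Cpt2 ran from 0.834-fold to 1.17-fold.

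The acyl-CoA dehydrogenases, which take the first step of each round for very long, long, medium and short chains, were not called, and their log2 fold changes ran from −0.04 to 0.20 (lowest edgeR adjusted p = 0.468). Acadvl, the very long-chain enzyme, was measured at 381, 431, 487 and 478 CPM in WT and at 505, 528, 460.4 and 493 CPM in KO. Here 3 of the 4 KO libraries lay above every WT library and the groups still overlapped (log2 fold change 0.16, SE 0.11). Acadl, the long-chain enzyme, was at 318 ± 48.0 CPM in WT and 346 ± 18.8 CPM in KO. Acadm, the medium-chain enzyme, was at 502 ± 157 and 576 ± 62.3 CPM, and its WT libraries spanned a 2.14-fold range that held all KO libraries. Acads, for short chains, was at 139 ± 16.4 and 153 ± 19.9 CPM, and Acad11, which acts on longer chains and 4-hydroxy acids, at 553 ± 95.3 and 536 ± 50.8 CPM.

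The later mitochondrial steps were not called either, with log2 fold changes from −0.11 to 0.11. Hadha and Hadhb encode the subunits of the trifunctional protein, which carries out the last 3 reactions of a round on long chains. Hadha was measured at 335, 447, 623 and 400.1 CPM in WT and at 415, 396, 401 and 458 CPM in KO. Hadhb was measured at 43.8, 68.4, 88.0 and 57.6 CPM in WT and at 60.03, 66.05, 68.0 and 77.8 CPM in KO. In both genes WT replicate 1 was lowest, WT replicate 3 highest and every KO library in between. Per length (TPM, transcripts per 1000000), Hadha was 5.33 ± 0.349 times Hadhb in WT and 4.66 ± 0.377 times in KO (SD, n = 4 each, exact permutation p = 0.0571, two-sided, 0.143 adjusted over 5 pairs). The ratio is uncertain, because 57.5% of the 50-base runs in Hadhb transcripts also occur at other loci, mainly in the processed pseudogene Gm13910, and the authors' command did not count reads that map to several places.

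Hadha and Hadhb lie head to head on chromosome 5, with RefSeq starts 273 bases apart. The window of Hadhb (GRCm38.p6, chr5:30155003-30155302, plus strand) is shown because 228 of its bases also belong to the window of Hadha. Both genes were lowest and highest in the same libraries, which is not particular to this pair. Among the WT libraries, replicate 1 was lowest and replicate 3 highest in 22 of the genes studied here. Any part of the shared bases in this pattern was not tested. The Hadhb window holds 24 CpG dinucleotides and no exact match to the 3 motifs.
Hadhb: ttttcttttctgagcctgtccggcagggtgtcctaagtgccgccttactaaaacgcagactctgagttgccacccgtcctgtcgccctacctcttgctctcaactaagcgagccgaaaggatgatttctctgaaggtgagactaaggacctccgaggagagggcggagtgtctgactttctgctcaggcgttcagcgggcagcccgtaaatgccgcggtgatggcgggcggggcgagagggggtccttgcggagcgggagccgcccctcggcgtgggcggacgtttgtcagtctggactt

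Hadh, the hydroxyacyl-CoA dehydrogenase for medium and short chains, was at 361 ± 60.9 CPM in WT and 385 ± 36.3 CPM in KO. Acaa2, the mitochondrial thiolase, had the highest length-corrected level of the 37 genes, with a mean of 1104 TPM over the 8 libraries, and also the smallest spread within groups (SD 0.12 on the log2 scale). Its levels were 606, 683, 771 and 705 CPM in WT and 716, 766, 671 and 723 CPM in KO, all KO libraries lying inside the WT range. Acat1, which condenses acetyl-CoA to acetoacetyl-CoA at the start of ketone synthesis and also cleaves it, was at 583 ± 193 and 628 ± 83.6 CPM, and its WT libraries spanned a 2.23-fold range.

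Bdh1 encodes the dehydrogenase that interconverts acetoacetate and beta-hydroxybutyrate, the last step of ketone synthesis. It was measured at 98.2, 152, 411 and 217 CPM in WT and at 229.6, 247, 289 and 330 CPM in KO. WT replicates 1 and 3 were the lowest and highest of all 8 libraries and lay 4.19-fold apart, while the KO libraries spanned 1.44-fold and sat between them. With that spread the log2 fold change of 0.32 (SE 0.43, edgeR adjusted p = 0.771) had a 95% interval from 0.607-fold to 2.56-fold. It was 0.62 in the 4-digit series and −0.41 in the series from 98 to 100, the latter against WT replicate 3 alone.

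The enzymes that handle double bonds, Eci1, Eci2, Decr1 and Decr2, had log2 fold changes from −0.12 to 0.05 and none was called. Eci2, a delta3-enoyl-CoA isomerase, was among the least variable, at 246, 304, 286 and 259 CPM in WT and 269.7, 270.5, 234.4 and 234 CPM in KO. KO replicates 3 and 4 lay below every WT library and replicates 1 and 2 did not. Eci1, the mitochondrial isomerase, was at 129 ± 37.3 CPM in WT and 129 ± 9.11 CPM in KO. Decr1 and Decr2, the mitochondrial and peroxisomal dienoyl-CoA reductases, were at 236 ± 65.7 and 239 ± 45.4 CPM in WT and at 239.9 ± 21.1 and 247 ± 30.2 CPM in KO.

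Electrons from the acyl-CoA dehydrogenases pass through the electron transfer flavoprotein, a dimer of the products of Etfa and Etfb, to the ubiquinone oxidoreductase encoded by Etfdh. Etfa was measured at 257, 296, 310.02 and 312 CPM in WT and at 288, 336, 293 and 293 CPM in KO. Etfb was measured at 243, 242, 243 and 321 CPM in WT and at 278, 284, 247 and 236 CPM in KO. Etfdh was measured at 415, 536, 608 and 502 CPM in WT and at 510.3, 459.9, 428 and 527 CPM in KO. All 3 genes overlapped between the groups, with log2 fold changes from −0.10 to 0.04, and their 95% intervals reached at most from 0.777-fold to 1.2-fold. Per length, Etfa stood at 0.703 ± 0.0876 of Etfb in WT and 0.721 ± 0.055 in KO (SD, n = 4 each, exact permutation p = 0.771).

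Of the 6 genes listed here for peroxisomal beta-oxidation none was called, and log2 fold changes ran from −0.23 to 0.12. Acot8 and Amacr, which are not among these genes, were called higher and are given below. Ehhadh, the bifunctional hydratase and dehydrogenase, had the second-highest length-corrected level at a mean of 851 TPM. It was measured at 826, 1713, 925 and 892 CPM in WT and at 1190, 1072, 775 and 1269 CPM in KO. WT replicate 2 alone lay above the KO libraries, and the log2 fold change was −0.02 (SE 0.25). Hsd17b4, the other bifunctional enzyme, was at 509 ± 102 and 508 ± 52.6 CPM. Acox2, an oxidase for branched chains and bile acid precursors, was among the least variable, at 206, 190, 221 and 233 CPM in WT and 243, 200.3, 214 and 226 CPM in KO. The groups overlapped, with a 95% interval from 0.894-fold to 1.2-fold. Acox3, another oxidase for branched chains, was at 29.8 ± 3.66 and 28.5 ± 3.55 CPM.

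Acaa1a and Acaa1b encode the peroxisomal 3-ketoacyl-CoA thiolases. Acaa1b was measured at 374, 637, 641 and 459 CPM in WT and at 394, 481, 383 and 540.5 CPM in KO, with a length-corrected mean of 590 TPM. Acaa1a was measured at 122, 175, 199 and 157 CPM in WT and at 178, 168, 163 and 199 CPM in KO. For both genes every KO library lay inside the WT range. Per length, Acaa1b stood at 7.22 ± 0.697 times Acaa1a in WT and at 5.7 ± 0.686 times in KO, and the ratio did not overlap between the groups (exact permutation p = 0.0286, two-sided, the smallest that 4 against 4 allows, and 0.143 adjusted over the 5 pairs). Of the 50-base runs in Acaa1b transcripts 35.5% occur in Acaa1a, and 26.7% of those of Acaa1a in Acaa1b, so reads from the shared stretches were left out of both counts and the ratio is uncertain.

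The promoters of this pair are shown because the paralogs stand at unequal levels per length. The lengths used were the deposited exon lengths, 4414 bases for Acaa1a and 1962 for Acaa1b, and they enter that ratio. Without them the WT means were 163 and 528 CPM. Both lie on chromosome 9 with starts 184201 bases apart, Acaa1a at chr9:119341044-119341343 on the plus strand and Acaa1b at chr9:119157044-119157343 on the minus strand (RefSeq, GRCm38.p6). Capitals mark CCAAT on either strand, with 4 matches in each, 2 of which overlap in Acaa1b. Acaa1a holds 10 CpG dinucleotides at 53.3% G and C, and Acaa1b 4 at 43.7%.
Acaa1a: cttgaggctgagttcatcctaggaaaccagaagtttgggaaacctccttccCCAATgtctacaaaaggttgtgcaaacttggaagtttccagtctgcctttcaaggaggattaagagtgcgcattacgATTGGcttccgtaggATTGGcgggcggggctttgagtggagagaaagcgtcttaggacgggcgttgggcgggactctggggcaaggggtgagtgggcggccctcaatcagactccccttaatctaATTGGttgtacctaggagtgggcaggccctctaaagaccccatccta
Acaa1b: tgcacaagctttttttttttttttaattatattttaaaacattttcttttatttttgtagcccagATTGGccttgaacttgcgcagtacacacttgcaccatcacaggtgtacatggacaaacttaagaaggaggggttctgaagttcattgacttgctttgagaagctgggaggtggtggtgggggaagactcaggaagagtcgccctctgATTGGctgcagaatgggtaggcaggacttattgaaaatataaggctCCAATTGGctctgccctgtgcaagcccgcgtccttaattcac

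**Figure D2:**
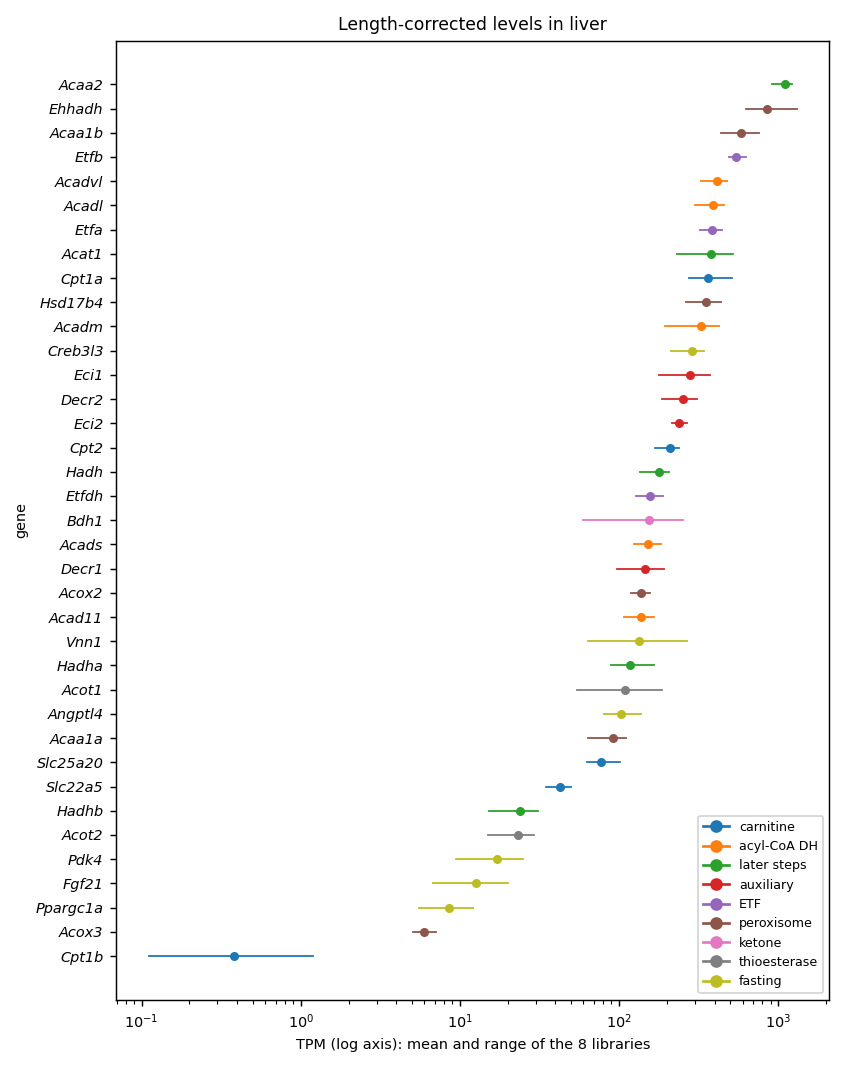
Length-corrected level of each gene in TPM on a log axis, with the mean (point) and the range (line) of the 8 libraries, coloured by role. Acaa2 stands highest at 1104 TPM, followed by Ehhadh at 851 TPM, and Cpt1b lowest at 0.383 TPM.

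Acot1 and Acot2 encode a cytosolic and a mitochondrial thioesterase that release free fatty acids from acyl-CoA, and lie 21641 bases apart by their starts. Acot1 was measured at 36.9, 92.4, 124 and 63.6 CPM in WT and at 77.6, 64.7, 41.5 and 74.1 CPM in KO. Acot2 was measured at 15.2, 25.8, 22.5 and 14.8 CPM in WT and at 27.02, 24.0, 19.0 and 24.9 CPM in KO. The KO libraries lay inside the WT range in Acot1, and KO replicate 1 lay above it in Acot2. Neither gene was called, with log2 fold changes of −0.30 (SE 0.40) and 0.28 (SE 0.18). Per length, Acot1 stood at 5.59 ± 1.83 times Acot2 in WT and 3.78 ± 0.492 times in KO (SD, n = 4 each, exact permutation p = 0.114). Of their 50-base runs 32.7% and 27.7% occur at other loci, which limits both counts.

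Among the fasting-response genes none was called, and the lowest adjusted p was that of Creb3l3. This gene encodes a hepatocyte transcription factor that is active in fasting and induces Fgf21, and it stood at 337 ± 65.1 CPM in WT and 397 ± 26.3 CPM in KO (log2 fold change 0.23, SE 0.13, edgeR adjusted p = 0.362). Fgf21, the hormone that the fasting liver secretes, was measured at 2.73, 4.64, 7.96 and 7.32 CPM in WT and at 5.26, 3.09, 3.19 and 5.56 CPM in KO. Its KO libraries lay within the WT range, and the 95% interval ran from 0.465-fold to 1.23-fold. Vnn1, a pantetheinase and PPAR-alpha target, was measured at 67.3, 123, 279 and 158 CPM in WT and at 104, 95.3, 123.1 and 142 CPM in KO, WT replicates 1 and 3 again being the extremes, 4.14-fold apart. Pdk4, the kinase that restrains pyruvate dehydrogenase, was at 23.9 ± 9.84 and 27.1 ± 4.57 CPM. Angptl4, a secreted inhibitor of lipoprotein lipase, was at 149 ± 33.3 and 137 ± 14.0 CPM. Ppargc1a, a coactivator of PPAR-alpha, was at 23.5 ± 4.95 and 23.8 ± 8.81 CPM, and was the only gene of the 37 whose WT libraries all lay within the KO range.

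**Figure D3:**
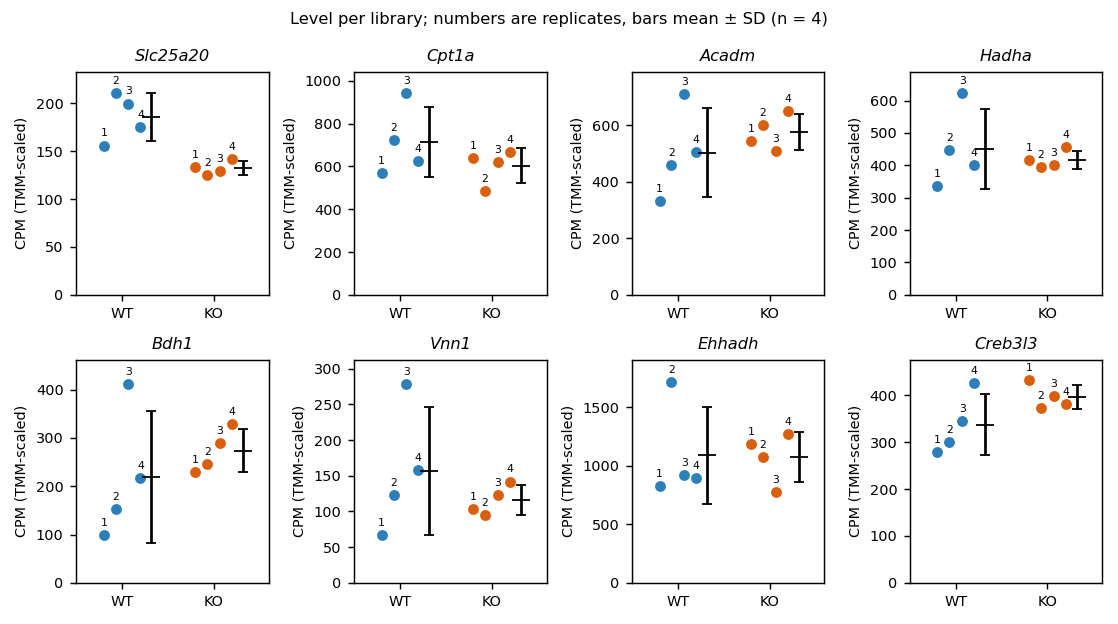
CPM per library for 8 of the genes, with replicate numbers beside the points and the mean ± SD (n = 4) as bars; each axis starts at 0. The groups are apart in Slc25a20 and overlap in the other 7, with WT replicate 3 above every other library in Cpt1a, Acadm, Hadha, Bdh1 and Vnn1.

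The KO libraries mostly lay within the spread of the WT animals. In 24 of the 37 genes all 4 KO libraries lay inside the WT range, which held for 21.9% of all genes tested. WT replicate 1 was the lowest of the 8 libraries in 26 genes and WT replicate 3 the highest in 22. Over all genes these libraries held those places in 14.6% and 14.3%. Within WT alone, replicate 1 was lowest and replicate 3 highest in the same gene in 22 of 37, against 11.8% of all genes. These genes share the same 8 libraries and are not independent observations.

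The log2 SD was larger in WT than in KO in 34 of 37 genes, against 60.8% of all genes, with median SDs of 0.30 in WT and 0.15 in KO (0.23 and 0.19 over all genes). Leaving out WT replicate 1 brought the count of genes with all KO libraries inside the WT range from 24 to 9 (16.5% of all genes), leaving out WT replicate 3 brought it to 10 (11.1%), and leaving out both brought it to 3 (6.66%). The count with the larger SD in WT was then 31, 34 and 20, against 58.7%, 50.4% and 45.3% of all genes. Slc25a20 was the 1 gene called, and no gene was called higher, without WT replicate 3, where 3.57% of all genes were called lower and 4.75% higher. With WT replicates 1 and 3 left out together, Slc25a20 was again the 1 gene called and no gene was called higher. Of all genes 196 were then called lower and 342 higher, against 534 and 710 without WT replicate 3 alone. As a share of all gene counts, the 37 genes took 0.834% in WT replicate 1, 1.25% in WT replicate 3 and at most 1.20% in the KO libraries.

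**Figure D4:**
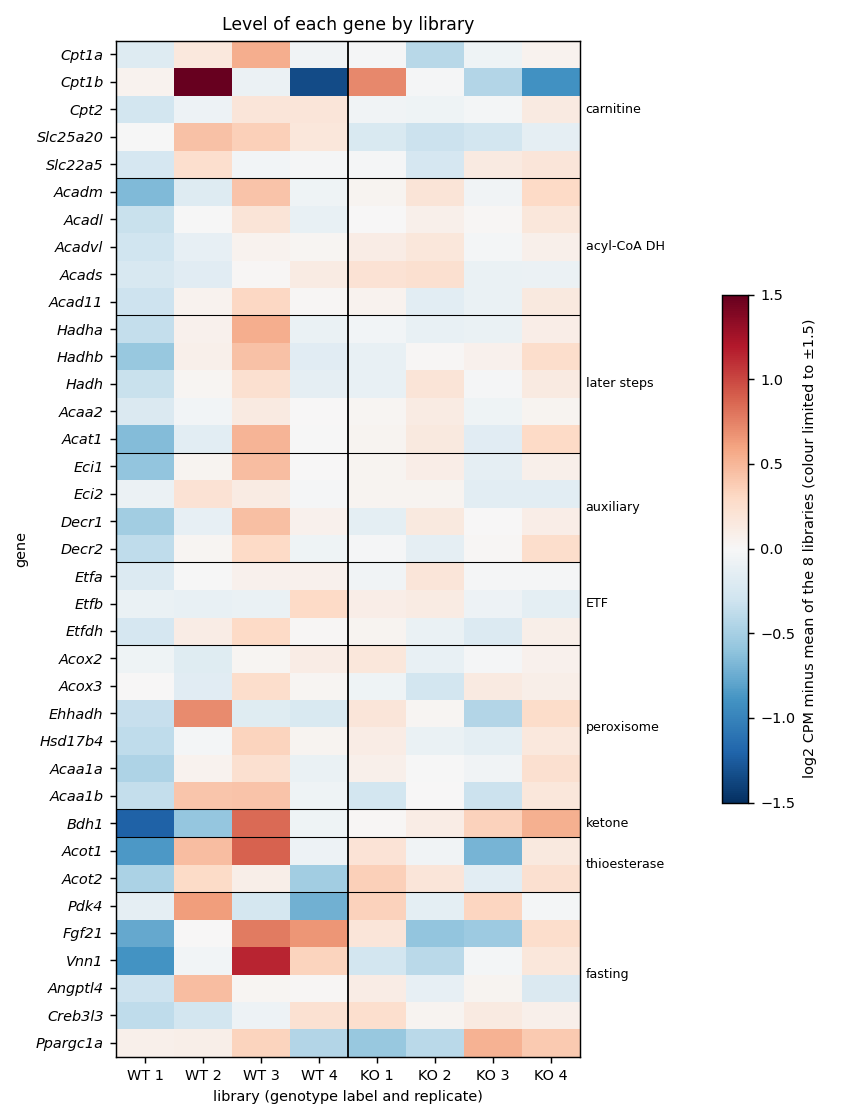
Log2 CPM of each gene minus its mean over the 8 libraries, by library (columns) and gene (rows, grouped by role); red is above the mean, blue below, with the colour limited to 1.5. WT 1 is blue in most rows and WT 3 red in most, while the KO columns are pale.

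The deviations of whole lists in WT replicates 1 and 3 were unequal. They are taken from the mean over all 8 libraries, so a list that differs between the genotypes is shifted in every WT library. The mean deviation of the 37 genes from their mean over the 8 libraries was −0.36, 0.11, 0.28 and −0.04 on the log2 scale in WT replicates 1 to 4, and between −0.07 and 0.10 in the KO libraries. For 51 other tested genes of fatty acid oxidation and ketone metabolism it was −0.25 in WT replicate 1 and 0.21 in WT replicate 3. Gluconeogenesis and fasting genes stood at 0.11 and 0.09 in those animals, genes of fatty acid synthesis and feeding at 0.36 and 0.08, and clock genes at 0.29 and 0.21. Other genes linked to PPAR-alpha stood at −0.17 and 0.19. Pericentral hepatocyte markers stood at −0.26 and 0.01, periportal ones at 0.05 and −0.07, and lymphocyte markers at 0.63 and −0.17. Endothelial markers stood at −0.05 and −0.01, and stellate cell and fibroblast markers at −0.12 and −0.20. Hepatocyte markers stood at −0.03 and 0.01, bile duct cell markers at −0.91 and −0.67, and macrophage markers at −0.01 and −0.16. In WT replicates 2 and 4, bile duct cell markers stood at −0.93 and −0.98. Genes of fatty acid synthesis and feeding stood at 0.42 and 0.12 in WT replicates 2 and 4, and clock genes at 0.42 and −0.20. Feeding state and hour of collection are not given, and their part in the differences between animals was not tested.

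**Figure D5:**
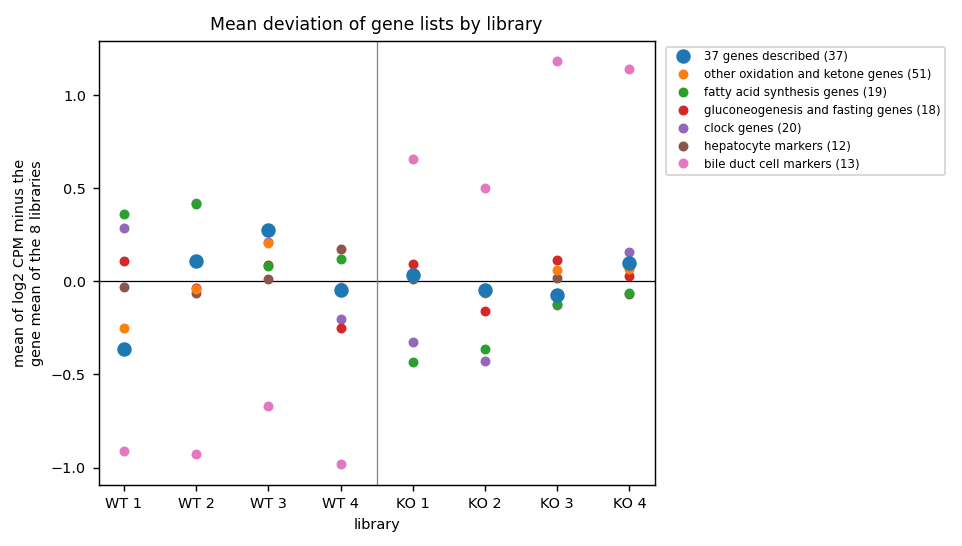
Mean log2 deviation of 7 gene lists from their mean over the 8 libraries, by library, with the number of genes in brackets. The 37 genes (large points) are lowest in WT 1 at −0.36 and highest in WT 3 at 0.28, and bile duct cell markers are below 0 in WT and above 0 in KO.

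The sign of the small differences was mostly unlike in the animal-number series. In the 4-digit series (3 WT, 2 KO) 25 of the 37 genes had a log2 fold change above 0 and 12 below, with a median of 0.08. In the series from 98 to 100 (1 WT, 2 KO) 5 of 36 measured genes were above 0 and 31 below, with a median of −0.17. The second comparison rests on WT replicate 3. A test of the difference between the series (edgeR interaction term), in which 1 arm is again WT replicate 3 alone, called none of the 37 and 3 of all genes (0.0205%) at an adjusted p under 0.05. At an unadjusted p under 0.05 there were 6 of the 37, against 6.40% of all genes, namely Acadm, Acads, Hadha, Acat1, Eci1 and Decr1 (adjusted p 0.681 to 0.76).

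Of the 51 other tested genes of fatty acid oxidation and ketone metabolism, 48 were not called, 3 rose and 0 fell, and the median log2 fold change was −0.02. Acad12, which belongs to the acyl-CoA dehydrogenase family, had 6.58 ± 2.37 CPM in WT and 14.4 ± 1.9 CPM in KO (SD, n = 4 each) and rose 2.17-fold (edgeR adjusted p = 0.0115). Its WT libraries lay between 4.3 and 9.91 CPM and its KO libraries between 12.4 and 17.0 CPM. Acot8, a peroxisomal thioesterase, rose 1.49-fold from 14.2 ± 2.86 to 21.1 ± 1.49 CPM (edgeR adjusted p = 0.0344), and Amacr, the racemase that readies branched chains for peroxisomal oxidation, rose 1.41-fold from 112 ± 14.1 to 157 ± 17.6 CPM (edgeR adjusted p = 0.0259). The count of 3 became 6 when WT replicate 3 was left out, 0 when WT replicate 2 was, and 1 when WT replicate 1 or KO replicate 1, 3 or 4 was. While none fell over all 8 libraries, 1 fell by DESeq2, and 1 fell when WT replicate 3 was left out, alone or with WT replicate 1.

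Of 32 other tested genes linked to PPAR-alpha, 29 were not called, 3 fell and 0 rose (1 without WT replicate 3), and the median was −0.11. Pex11a, which takes part in peroxisome division, fell 2.01-fold, from 173, 230.3, 132 and 138 CPM in WT to 86.9, 100.9, 75.1 and 72.6 CPM in KO (edgeR adjusted p = 0.0109). Pank1, a pantothenate kinase of coenzyme A synthesis, fell 1.66-fold, from 279 ± 43.5 to 168 ± 2.91 CPM, and its KO libraries lay between 165 and 170.5 CPM (edgeR adjusted p = 0.00222). Tmem135, a peroxisomal and mitochondrial membrane protein, fell 1.29-fold from 105 ± 8.61 to 81.6 ± 4.98 CPM (edgeR adjusted p = 0.0368). In each of these 3, as in Slc25a20, no KO library reached the lowest WT library, which held for 5.01% of all genes. This is no separate support, because these genes were called lower from the same libraries. At an unadjusted p under 0.05 there were 10 of these 32 genes, against 18.0% of all genes. There were 12 of the 51 other genes of fatty acid oxidation and ketone metabolism, and 7 of 19 genes of fatty acid synthesis and feeding. Over all 8 libraries edgeR called none of 18 gluconeogenesis and fasting genes and none of 20 clock genes, with 3 and 5 at an unadjusted p under 0.05. When WT replicate 3 was left out, 2 of the gluconeogenesis and fasting genes were lower and 1 higher, and 1 was higher by DESeq2, without KO replicate 2 or in the 4-digit series. Of the clock genes 3 were lower without WT replicate 3 or in the 4-digit series, 2 by DESeq2 or with the number series as a covariate (which also called 1 higher), and 1 by limma, with no low-count filter, without WT replicate 4, without WT replicates 1 and 3 or with the replicate block. Txnip and Gadd45b had the lowest p of the former list. Txnip had a log2 fold change of 0.38 (edgeR adjusted p = 0.149), and the clock gene Usp2 one of −0.77 (edgeR adjusted p = 0.0538). Of 19 genes of fatty acid synthesis and feeding 1 fell, Acss2, an acetyl-CoA synthetase (1.41-fold, edgeR adjusted p = 0.0138), with a list median of −0.43. That count became 6 by DESeq2, 4 when WT replicate 3 was left out, 2 when WT replicate 4 or WT replicates 1 and 3 were, and 0 when WT replicate 2 or KO replicate 4 was. It was 3 with the number series as a covariate, in the 4-digit series and with no low-count filter. Over all genes the number called lower moved as well, from 201 to 495 by DESeq2 and to 71 without WT replicate 2.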

How the data were processed

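Livers were frozen, RNA was extracted with a Nucleospin RNA II kit, and directional libraries were made from enriched mRNA, per the labels' protocols. The deposited values are raw read counts per gene. Per the submitters' processing notes the authors used bcl2fastq 2.19.1, GSNAP and featureCounts 1.5.1 on mm10. Per the file headers, counting used Ensembl 81 with strand setting 2 and a minimum mapping quality of 1, and the command set no multi-mapping or multi-overlap option. The 92 ERCC rows held 0 counts and were not used. The deposited exon length per gene (other values) gave TPM.

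The tests ran in edgeR 4.0.16 (R 4.3.3): filterByExpr (minimum count 10), TMM, robust glmQLFit and glmQLFTest, and Benjamini-Hochberg adjustment over 14645 genes. DESeq2 1.42.0 and limma 3.58.1 (voom) were alternatives. The SE comes from the F statistic. Log2 CPM used a prior count of 2. Simulated counts with known changes, at a dispersion of 0.03 for every gene, were used to check the edgeR test. Identity to other loci was taken from runs of 50 bases in GENCODE M21 transcripts, and promoters from RefSeq.

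The 37 genes and all lists were chosen with earlier results of these data known. Values in every library are given for genes that were called, for the 5 highest by TPM, the 5 most and the 5 least variable within groups, and for paralog pairs and complexes. Of the other metabolic lists up to 4 called genes, or 2 with the lowest p, are named, except 1 that is not reported here, and cell type markers are given by counts. Ratios between paralogs were compared by exact permutation. Replicate numbers are not stated to pair animals, and p-values set the difference between groups against the spread between these animals.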

Additional observations from a re-analysis of the deposited data

Results flagged for a closer look

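In 4 of 74 groups of 4 libraries (37 genes, 2 genotypes), 1 library stood apart from the other 3, its gap to the nearest, as a share of the group's range, exceeding Dixon's 95% critical value; chance gives about 1 in 20. Ehhadh stood at 1713 CPM in WT replicate 2, Etfb at 321 CPM in WT replicate 4, Cpt2 at 231 CPM in KO replicate 4 and Etfa at 336 CPM in KO replicate 2. The libraries differ between the genes. None of these genes was called.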

How the results depend on the processing

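Of 17 alternatives with a test, 12 called Slc25a20 and all gave a log2 fold change below 0, from −0.57 to −0.42, with adjusted p from 0.000942 by DESeq2 to 0.0815 among the animals with 4-digit numbers. In the 5 that did not call it, the count of genes lower was 0: without WT replicate 2 (−0.42) or KO replicate 1, 2 or 3 (−0.49, −0.47 and −0.48), and among the animals with 4-digit numbers (−0.48). Fewer libraries entered these fits, and also those without WT replicate 1, WT replicate 3 or both. The latter called Slc25a20 (edgeR adjusted p = 0.0105, 0.0188 and 0.0153). Leaving out single libraries gave counts of 0 to 1 lower, 0 higher, log2 fold changes of −0.57 to −0.42 for Slc25a20, and medians over the 37 genes from −0.08 to 0.08. No other of the 37 was called under any alternative. The sign of the log2 fold change turned under at least 1 alternative in 31 of them, of which none was called. With the replicate number as a replicate block Slc25a20 stood at −0.48 (edgeR adjusted p = 0.0349) and the median at 0.03. Same-numbered animals correlated at −0.15 to 0.12 in their deviations from the group means, so the numbers were not taken as pairs. Leaving out WT replicates 1 and 3 together was chosen after seeing the data. The number of libraries, 4 a group, limits what could be called among genes as variable as Bdh1.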
